A study of Mus musculus with 12 samples.

Results

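Cranial sutures were examined in these data through 10 genes: the transcription factor genes Twist1, Msx1, Msx2 and Alx4, the FGF receptor genes Fgfr1, Fgfr2 and Fgfr3, the ligand gene Fgf18, the ephrin gene Efnb1 and the WNT feedback gene Axin2. They were chosen by name, as regulators of the mesenchyme between the skull bones or as genes mutated in early fusion (craniosynostosis) or late closure of the skull. The choice was made with earlier results of these data known, so their counts are not an independent test. They are 10 of the 23715 gene symbols in the RNA-seq tables, and all 10 passed the filter on low values that left 13059 genes to test. RNA from the calvaria (skull vault) of newborn C57BL/6 mice was sequenced from 12 animals, 3 in each of 4 groups. P-KO mice lack Med23, a subunit of the Mediator complex, in mesenchymal stem cells, through floxed Med23 alleles and a Prx1-driven Cre recombinase. P-Ctrl mice, labelled WT, are their control littermates, which carry the floxed alleles without deletion per the study's description. R-Het mice carry 1 inactive allele of Runx2, the transcription factor that commits cells to the osteoblast lineage, in all cells (Runx2+/-), and R-WT mice are their wild-type littermates. The labels name newborn calvaria as the tissue, and the study's methods name parietal bone of P2 animals. Prx1-Cre acts in limb and part of the craniofacial mesenchyme, so a P-KO calvaria also holds cells in which Med23 was not deleted.

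The flat bones of the skull grow by membranous ossification at their edges, and the suture between them keeps a strip of undifferentiated mesenchyme that supplies new osteoblasts. FGF ligands acting on FGF receptors push these cells towards bone, and activating receptor mutations fuse sutures early. TWIST1, which binds RUNX2 and restrains it, keeps cells undifferentiated, and loss of a TWIST1 or EFNB1 allele also causes craniosynostosis. Loss of MSX2 or ALX4, as of RUNX2, instead leaves openings in the skull. The 2 comparisons ask how these genes stand in calvariae in which osteoblast formation was disturbed through Med23 or through Runx2.

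Values are FPKM (fragments scaled to the length of the transcript and to the number of mapped fragments), summed over the transcripts of a gene. A gene is said to be called when its Benjamini-Hochberg adjusted p, over all 13059 genes in limma, was below 0.05. From the steps between the lowest values the libraries held about 7800000 to 11500000 counted fragments, so Axin2, the lowest of the 10, rested on roughly 51 to 140 fragments per mouse. Med23 averaged 5.32 ± 0.732 FPKM in P-Ctrl and 5.30 ± 0.425 in P-KO (SD, n = 3), and Runx2 averaged 31.6 ± 5.39 in R-WT and 33.5 ± 2.76 in R-Het. Neither targeted gene was lower in its own mutant libraries, so this check does not support the labels, and the directions below are those of the libraries labelled P-KO and R-Het. By the study's methods the floxed allele loses only some exons of Med23, while the values here are for whole transcripts. For Med23 the check therefore cannot decide whether the gene was deleted. The study's methods do not describe how the Runx2 allele was altered, so whether it still gives a transcript is unknown. For Runx2 the check cannot decide the genotype either. Xist, expressed from the inactive X chromosome of females, was above 1 FPKM in 3 libraries, all of them controls (P-Ctrl replicates 2 and 3 and R-WT replicate 1). It was at most 0.0578 FPKM in P-KO and 0.0489 FPKM in R-Het, so sex is partly confounded with genotype in both comparisons. Osteoblast markers were abundant in every library, with a sum over 8 genes of 20550 to 44070 FPKM. The sum over 10 skeletal muscle markers ran from 26.3 to 6387 FPKM.

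On GRCm38.p6 the RefSeq genes lie at chr12:33957671-33959831 (Twist1), chr5:37820491-37824585 (Msx1), chr13:53466881-53472780 (Msx2), chr2:93642434-93681341 (Alx4) and chr8:25518759-25575718 (Fgfr1). The others lie at chr7:130162451-130266808 (Fgfr2), chr5:33721724-33737068 (Fgfr3), chr11:33116970-33147400 (Fgf18), chrX:99136061-99149022 (Efnb1) and chr11:108917828-108950783 (Axin2).

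Twist1 was the most abundant of the 10 genes in every group, with mean levels of 101 to 127 FPKM, above at least 92.3% of the tested genes. Fgfr1 came next at 60.7 to 71.3 FPKM, and the mice of the 2 genes did not overlap in any group. Fgfr2 (29.0 to 39.3 FPKM) and Efnb1 (28.1 to 32.9 FPKM) followed, and their mice overlapped in each group. Alx4 (17.8 to 23.4 FPKM) and Msx1 (18.9 to 24.9 FPKM) formed the middle of the order, and Fgfr3 lay below them at 12.7 to 16.7 FPKM. Msx2 ranked eighth in P-Ctrl, P-KO and R-WT, but seventh in R-Het, and its mice overlapped with those of Fgfr3 in P-KO and R-Het. Fgf18 (5.86 to 6.70 FPKM) and Axin2 (1.94 to 2.69 FPKM) were lowest in every group, and Axin2 lay below all but 13.0% to 19.0% of the tested genes. Because FPKM is per length of transcript, these levels can be compared between genes, but only roughly. How reads shared between transcripts were divided is unknown, and other differences between genes in how well they are read were not corrected here.

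**Figure D1:**
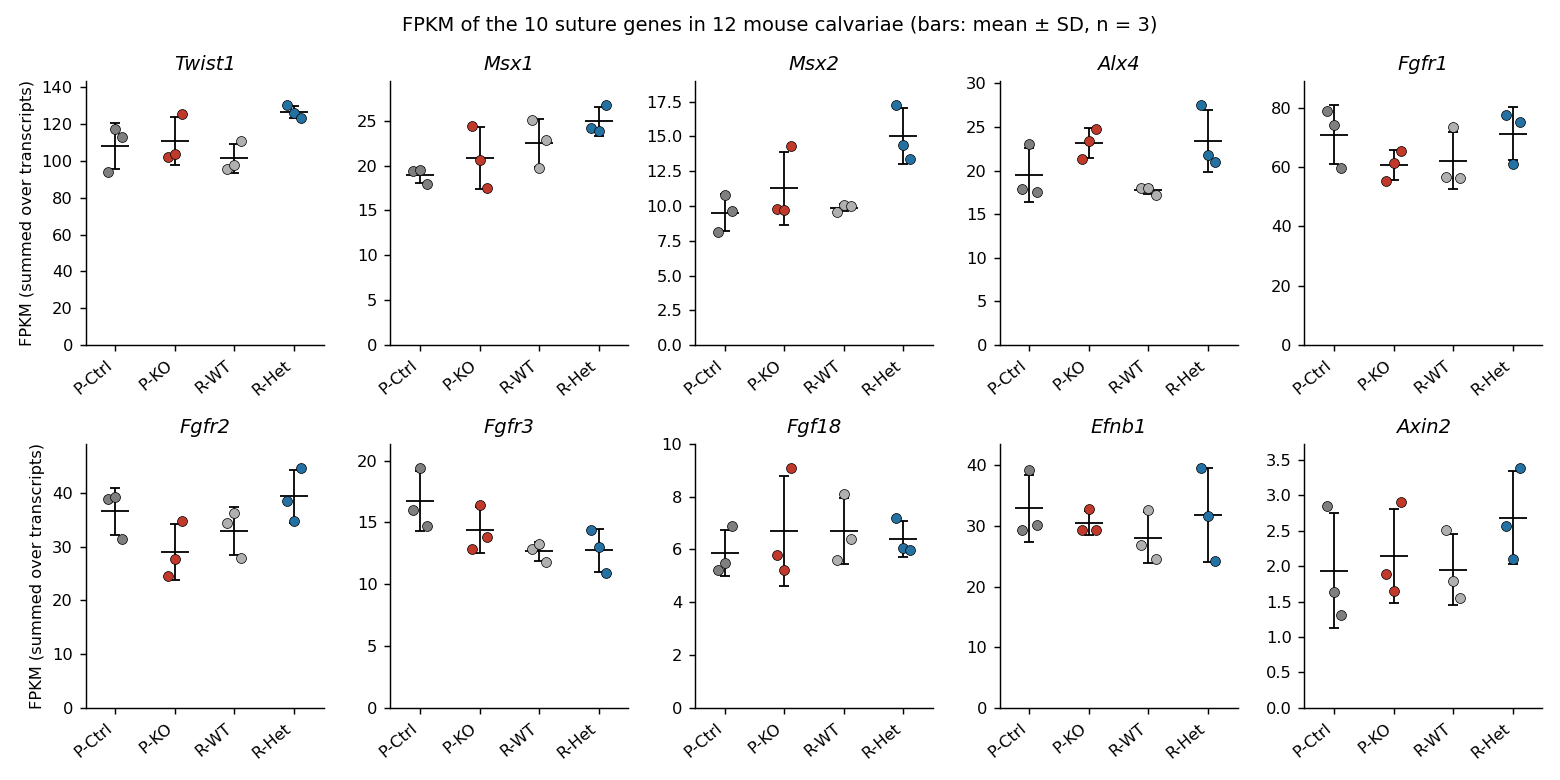
FPKM of each of the 10 genes (y axis, starting at 0) in the 3 mice of each group (x axis); points are mice and black bars the mean ± SD. All 3 R-Het mice lie above all 3 R-WT mice for Twist1, Msx2 and Alx4, and no gene separates P-KO from P-Ctrl.

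Of the transcription factor genes of the suture, Msx2 was called as higher in the libraries labelled R-Het than in R-WT, at 1.46-fold, and it was the only 1 of the 10 genes to be called in either mutant. Twist1 and Alx4 lay above R-WT in all 3 R-Het mice at 1.25- and 1.29-fold, but neither passed the adjusted threshold, and Msx1 overlapped between the groups. In this comparison 1.89% of the 13059 tested genes were called, and 0.398% of the 13059 were called as higher. All 3 mutant mice lay above all 3 controls in 3 of the 10 genes, against 10.7% of all tested genes, and all below in 0 of the 10, against 10.4%. At an unadjusted p below 0.05, the same 3 genes were higher, against 7.09% of all tested genes. The 10 genes had a median log2 fold change of 0.22, and all tested genes one of 0.02.

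Msx2 encodes a homeodomain factor of the suture and of the bone fronts, whose loss delays closure of the skull. Its level was 9.60, 10.1 and 9.99 FPKM in the R-WT mice, and 17.3, 14.4 and 13.4 FPKM in the R-Het mice. The R-WT mice lay close together, and each R-Het mouse stood above all of them. The log2 fold change was 0.55 (SE 0.105, 95% interval 0.31 to 0.79), with an adjusted p of 0.0474 in limma. The call was lost in 13 of 15 alternative settings, among them each of the 6 in which 1 mouse was left out, where the adjusted p was 0.0561 (without R-Het replicate 3) to 0.182 (without R-WT replicate 1), although the fold change stayed positive in all 15. In P-Ctrl Msx2 was 8.15, 10.8 and 9.66 FPKM, and in P-KO it was 9.81, 9.73 and 14.3 FPKM. Only P-KO replicate 3 lay above the controls, and the log2 difference of 0.21 had a 95% interval of -0.18 to 0.60 (adjusted p = 0.502 in limma).

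Twist1 encodes the basic helix-loop-helix factor that keeps suture cells undifferentiated. Its level in R-WT was 95.7, 97.7 and 111 FPKM, and in R-Het 130, 126 and 123 FPKM. Every R-Het mouse was higher than every R-WT mouse, and the R-Het mice were close to each other (127 ± 3.44 FPKM, SD, n = 3). The log2 fold change was 0.32 (SE 0.0869, 95% interval 0.12 to 0.52), and the adjusted p was 0.122 in limma, so Twist1 was not called. In P-Ctrl the level was 94.0, 117 and 113 FPKM, and in P-KO 102, 104 and 126 FPKM. These groups overlapped, and the log2 difference was 0.03 (95% interval -0.25 to 0.32, adjusted p = 0.908 in limma), with a sign that changed when the libraries were rescaled.

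Alx4 encodes a paired-type homeodomain factor of cranial mesenchyme. It was 18.1, 18.0 and 17.2 FPKM in R-WT, against 27.5, 21.7 and 21.0 FPKM in R-Het. All 3 R-Het mice were above the R-WT range, R-Het replicate 1 by the widest margin. The log2 fold change was 0.37 (SE 0.112, 95% interval 0.11 to 0.63), and with an adjusted p of 0.163 in limma it was not called. In P-Ctrl Alx4 was 17.9, 23.1 and 17.6 FPKM and in P-KO 21.3, 23.4 and 24.8 FPKM. P-Ctrl replicate 2 lay within the P-KO range, and the log2 difference was 0.24 (95% interval -0.04 to 0.53, adjusted p = 0.297 in limma).

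Msx1, the paralogue of Msx2, was 25.0, 19.7 and 22.9 FPKM in R-WT and 24.1, 23.9 and 26.7 FPKM in R-Het. In P-Ctrl it was 19.3, 19.5 and 17.9 FPKM, and in P-KO 24.4, 20.6 and 17.4 FPKM. The groups overlapped in both comparisons. Its log2 differences were 0.14 (95% interval -0.10 to 0.39) in R-Het and 0.12 (95% interval -0.17 to 0.41) in P-KO.

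Other cell types differed between the same R groups. All 10 skeletal muscle markers were lower in every R-Het mouse than in every R-WT mouse, and 9 of them were called. Their sum was 2139 to 6387 FPKM in R-WT and 30.9 to 209 FPKM in R-Het, and no muscle marker was at 0 throughout either group. The 6 osteoclast markers were likewise lower in every R-Het mouse, with 2 called and a sum of 5031 to 6312 FPKM in R-WT against 3298 to 4116 FPKM in R-Het. The 5 markers of the meninges, the membranes under the skull, summed to 72.9 to 132 FPKM in R-WT and 130 to 298 FPKM in R-Het, overlapping and with 0 called. The 5 endothelial markers summed to 93.6 to 101 FPKM in R-WT and 69.1 to 77.4 FPKM in R-Het, without overlap, and 1 of them, Pecam1, was called as lower (adjusted p = 0.0185 in limma). The 6 erythroid markers were all lower in R-Het at an unadjusted p below 0.05 with 0 called, and their sums of 10960 to 13360 FPKM in R-WT and 2937 to 11710 FPKM in R-Het overlapped. The 8 cartilage markers, at 54.2 to 76.95 FPKM in R-WT and 68.4 to 114 FPKM in R-Het, also overlapped, with 0 called. The 8 osteoblast markers summed to 34400 to 39200 FPKM in R-WT and 24630 to 31900 FPKM in R-Het, without overlap and with 0 called. Of these 8, 5 had log2 differences above 0 and 3 below, and 2, Ibsp and Spp1, were lower in every R-Het mouse. With the mean of the muscle markers as a covariate, the log2 fold changes of Msx2, Twist1 and Alx4 were 0.90, 0.59 and 0.63. Their errors were larger (adjusted p = 0.489, 0.538 and 0.601 in limma). Because the muscle markers separated the R groups completely, muscle and genotype cannot be told apart in this fit. Its values are not read as effects with muscle removed. The part of the osteoblast, osteoclast, meningeal, endothelial and erythroid differences in the values of Msx2, Twist1 and Alx4 was not tested. In bulk tissue, fewer cells of a type and less RNA per cell cannot be told apart.

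The bases before the start of Msx2 and Twist1 are shown because all 3 R-Het mice lay above all 3 R-WT mice for both genes, and because RUNX2 binds DNA of a known core. They are the 250 bases before the RefSeq transcription start in GRCm38.p6, 5′ to 3′ on the strand of the gene, with capitals marking the homeodomain core TAATTA and the CCAAT box. Msx2 lies on the minus strand, chr13:53472781-53473030, and Twist1 on the plus strand, chr12:33957421-33957670.
Msx2: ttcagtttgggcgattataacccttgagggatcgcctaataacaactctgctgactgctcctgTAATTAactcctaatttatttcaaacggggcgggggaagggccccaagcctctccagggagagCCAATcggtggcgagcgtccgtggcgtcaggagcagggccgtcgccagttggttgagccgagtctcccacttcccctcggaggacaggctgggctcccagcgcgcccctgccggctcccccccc
Twist1: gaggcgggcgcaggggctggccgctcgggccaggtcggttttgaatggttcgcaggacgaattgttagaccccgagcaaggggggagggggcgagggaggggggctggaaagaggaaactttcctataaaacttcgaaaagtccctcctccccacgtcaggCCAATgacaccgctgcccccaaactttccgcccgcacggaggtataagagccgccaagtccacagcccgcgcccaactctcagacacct

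The promoter table held 9 entries for 8 of the 10 genes, and none for Alx4 and Fgfr1. The RUNX core TGTGGT, searched on both strands, was in 0 of these 9 windows, and in 14.1% of the 32851 windows of the same length in the table. TAATTA, which reads the same on both strands, was in the Msx2 window alone among the 9, starting 187 bases before the start, and in 4.84% of all windows. CCAAT, on either strand, was in 5 of the 9 windows and in 33.9% of all. In Msx2 it started 124 bases and in Twist1 89 bases before the transcription start. CANNTG, the E-box that Twist1 and related factors bind, was in 4 of the 9 windows and in 66.2% of all windows. These are matches of letters, not measured binding, and a missing match concerns this window alone.

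In P-KO, 0 of the 10 genes were called, against 1.57% of all tested genes, and at an unadjusted p below 0.05 the count was again 0 of 10, against 21.3% of all tested genes. The two-tailed unpaired test that the study's methods name, with the same adjustment, also called 0 of the 10. All 3 mutant mice lay above all controls in 0 of the 10 genes, against 19.6% of tested genes, and below them in 0, against 7.68%. The 3 FGF receptor genes had lower means in P-KO than in P-Ctrl, at 0.794-fold for Fgfr2, 0.861-fold for Fgfr1 and 0.870-fold for Fgfr3. The median log2 difference of the 10 genes was 0.07, and that of all tested genes 0.06. The sum of the 8 osteoblast markers was 42200 to 44070 FPKM in P-Ctrl and 20550 to 27630 FPKM in P-KO, and 1 of the 8, the osteocalcin gene Bglap, was called as lower. The muscle markers summed to 26.3 to 1549 FPKM in P-Ctrl and 665 to 4654 FPKM in P-KO, and their part in the values of the 10 genes was tested only as the muscle covariate, with which 0 were called. The meningeal markers summed to 80.3 to 121 FPKM in P-Ctrl and 122 to 193 FPKM in P-KO, and 1 of the 5, Aldh1a2, was called as higher (adjusted p = 0.0211 in limma). The erythroid markers summed to 9377 to 13430 FPKM in P-Ctrl and 5053 to 8674 FPKM in P-KO, with 0 called. The cartilage markers summed to 66.3 to 120 FPKM in P-Ctrl and 44.6 to 64.0 FPKM in P-KO, with 1 of 8, the collagen gene Col2a1, called as lower (adjusted p = 0.0404 in limma). None of these 3 sums overlapped between the groups, and their part in the values of the 10 genes was not tested.

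**Figure D2:**
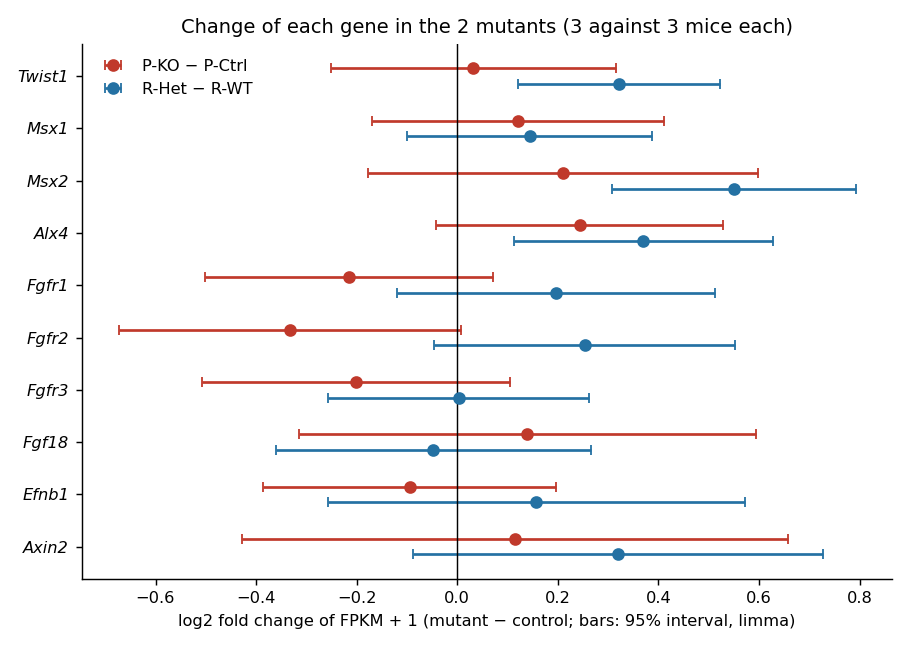
log2 fold change of FPKM + 1 (x axis) of each of the 10 genes (y axis) in P-KO against P-Ctrl and in R-Het against R-WT, 3 mice against 3; bars are 95% intervals from limma, before adjustment for the number of genes. The intervals of Twist1, Msx2 and Alx4 in R-Het lie above 0, and every interval in P-KO includes 0.

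Fgfr2 encodes the FGF receptor whose activating mutations cause Apert and Crouzon syndromes. It was 39.0, 39.3 and 31.5 FPKM in P-Ctrl and 24.5, 27.8 and 34.7 FPKM in P-KO. P-KO replicates 1 and 2 were below every control, and P-KO replicate 3 was above P-Ctrl replicate 3. The log2 difference was -0.33 (SE 0.146, 95% interval -0.67 to 0.01), with an adjusted p of 0.245 in limma. In R-WT Fgfr2 was 34.4, 36.3 and 27.9 FPKM, and in R-Het 38.6, 34.8 and 44.7 FPKM. Here the mutant mean was the higher one, with overlapping groups and a log2 difference of 0.25 (95% interval -0.05 to 0.55, adjusted p = 0.410 in limma), which became -0.47 with the muscle covariate. In that fit of the R groups muscle and genotype cannot be told apart, as given above.

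The 2 mutants were set against each other by testing the difference between their fold changes over all 12 mice. None of the 10 genes was called (0 of 10, against 0.153% of all tested genes), and at an unadjusted p below 0.05 the count was 1 of 10, against 15.3%. That gene was Fgfr2, with a difference of -0.59 (SE 0.208, 95% interval -1.04 to -0.13, adjusted p = 0.212 in limma). For Msx2 the same difference was -0.34 (95% interval -0.79 to 0.11), so its change in R-Het was not shown to differ from that in P-KO. For Twist1 it was -0.29 (95% interval -0.62 to 0.04) and for Alx4 -0.13 (95% interval -0.50 to 0.25).

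Fgfr1 encodes the receptor mutated in Pfeiffer syndrome. Its level was 78.9, 74.1 and 59.7 FPKM in P-Ctrl and 55.4, 61.3 and 65.4 FPKM in P-KO. It was 56.7, 73.5 and 56.5 FPKM in R-WT and 77.7, 60.9 and 75.3 FPKM in R-Het. The groups overlapped in both comparisons, with log2 differences of -0.22 (95% interval -0.50 to 0.07) in P-KO and 0.20 (95% interval -0.12 to 0.51) in R-Het. Fgfr3, the receptor mutated in Muenke syndrome and in achondroplasia, was 16.0, 19.4 and 14.7 FPKM in P-Ctrl and 12.9, 16.4 and 13.8 FPKM in P-KO. R-WT mice had 12.8, 13.3 and 11.8 FPKM, and in R-Het 14.4, 13.0 and 10.9 FPKM. These groups overlapped too, and the log2 differences were -0.20 (95% interval -0.51 to 0.11) in P-KO and 0.00 (95% interval -0.26 to 0.26) in R-Het.

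Fgf18, a ligand made by osteogenic mesenchyme of the sutures, was 5.23, 5.49 and 6.87 FPKM in P-Ctrl and 5.79, 5.21 and 9.09 FPKM in P-KO. It was 5.60, 8.08 and 6.41 FPKM in R-WT and 7.19, 6.04 and 5.98 FPKM in R-Het. P-KO replicate 3 had the highest value, and the groups overlapped in both comparisons, with log2 differences of 0.14 (95% interval -0.32 to 0.59) in P-KO and -0.05 (95% interval -0.36 to 0.27) in R-Het.

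Efnb1, an X-linked gene, encodes the ephrin that keeps the coronal boundary between cells of neural crest and of mesoderm. It was 29.2, 39.2 and 30.1 FPKM in P-Ctrl and 29.4, 32.9 and 29.3 FPKM in P-KO. R-WT mice had 26.9, 32.7 and 24.6 FPKM, and in R-Het 39.6, 31.6 and 24.1 FPKM. Each pair of groups overlapped, with log2 differences of -0.09 (95% interval -0.39 to 0.20) and 0.16 (95% interval -0.26 to 0.57). Without the 3 libraries with Xist, which are all controls, the difference in P-KO was 0.06, but 1 control mouse is then left, so this value has no spread of its own on the control side.

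Axin2, a feedback inhibitor that WNT signalling itself induces, was 2.85, 1.64 and 1.31 FPKM in P-Ctrl and 1.89, 1.64 and 2.90 FPKM in P-KO. It was 2.51, 1.79 and 1.55 FPKM in R-WT and 2.57, 2.10 and 3.39 FPKM in R-Het. The spread within groups was wide relative to these levels, and the groups overlapped. The log2 differences were 0.11 (95% interval -0.43 to 0.66) in P-KO and 0.32 (95% interval -0.09 to 0.73) in R-Het, so differences of this size were not resolved with 3 mice a group.

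Of the 10 genes, 6 were deposited as 1 transcript and 4 as several, which gave 12 transcripts of Fgf18, Fgfr1, Fgfr2 and Fgfr3 to compare. FGF receptors choose between 2 exons for the latter part of the third immunoglobulin domain, and the choice sets which ligands bind. Fgfr2 was deposited as 2 transcripts, and 1 of them is the IIIb form. The exon that names this form is shown, from the GENCODE M21 transcript that matches the deposited one. It was picked because the transcript that holds it separated P-KO from P-Ctrl, which is a value of the whole transcript and not of this exon. It has 148 bases at chr7:130199758-130199905, on the minus strand of GRCm38 and within the coding region.
Fgfr2 IIIb exon: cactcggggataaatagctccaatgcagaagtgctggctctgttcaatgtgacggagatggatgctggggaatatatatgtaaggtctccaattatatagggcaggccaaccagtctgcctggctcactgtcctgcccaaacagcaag

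The Fgfr2 transcript with the IIIb exon was 15.8, 15.7 and 11.4 FPKM in P-Ctrl and 7.82, 9.51 and 8.84 FPKM in P-KO. All 3 P-KO mice were below all 3 controls, and the share of this transcript in the Fgfr2 total was 36.1% to 40.5% in P-Ctrl and 25.5% to 34.2% in P-KO. Its log2 difference was -0.64, with a two-sided exact permutation p of 0.1, the smallest that 3 against 3 mice allow, and 0.8 after adjustment over the 24 tests of the 12 transcripts, of which 3 showed no overlap. In R-WT it was 5.74, 8.99 and 11.1 FPKM and in R-Het 9.77, 7.69 and 7.14 FPKM, without separation. The R-WT mice thus ranged below P-Ctrl for the same transcript, and these are the control mice of a different cross.

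The other Fgfr2 transcript was the more abundant in every mouse. It was 23.2, 23.6 and 20.1 FPKM in P-Ctrl and 16.7, 18.3 and 25.9 FPKM in P-KO. In R-WT it was 28.7, 27.3 and 16.8 FPKM, and in R-Het 28.8, 27.1 and 37.5 FPKM. The groups overlapped in both comparisons. The 2 transcripts differ at several places, since the IIIb one lacks the 267-base exon of the first immunoglobulin domain and has a last exon of 1673 bases, against 415 bases in the other. Their values are the authors' estimates for whole transcripts, and neither measures the use of 1 exon. The 6 epidermal markers summed to 3.2 to 3.6 FPKM in P-Ctrl and 3.3 to 5.0 FPKM in P-KO. In each of these groups 5 of the 6 were below 1 FPKM in all mice. Which cells gave the reads assigned to the IIIb transcript was not tested.

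**Figure D3:**
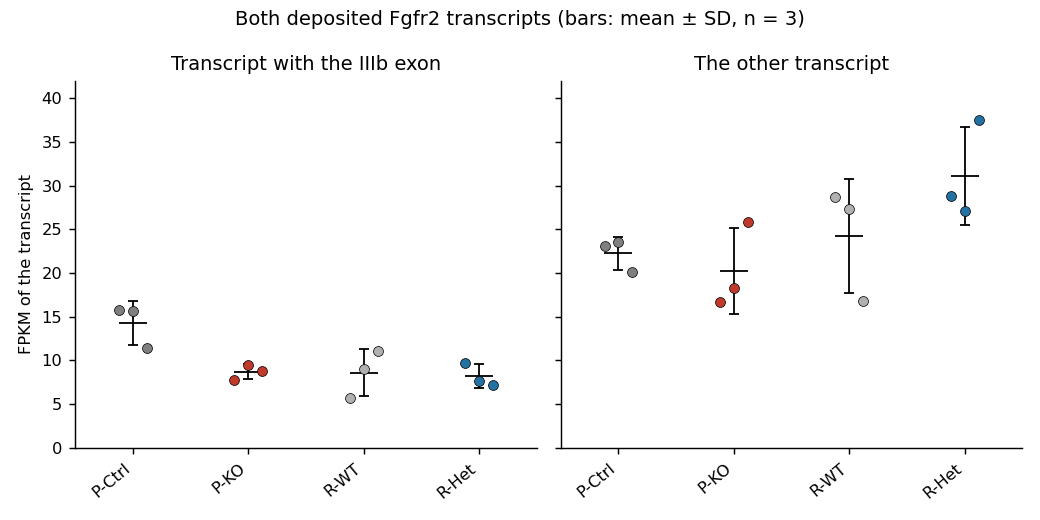
FPKM of the deposited Fgfr2 transcript with the IIIb exon (left) and of the other Fgfr2 transcript (right) in the 3 mice of each group; points are mice, black bars the mean ± SD, and both panels share the y axis. For the IIIb transcript the P-KO mice, at 7.82 to 9.51 FPKM, lie below the P-Ctrl mice, at 11.4 to 15.8 FPKM, and the other transcript separates neither comparison.

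Of the 3 Fgfr1 transcripts, the one without the 267-base exon of the first immunoglobulin domain was the most abundant in every mouse, with 42.1% to 62.3% of the Fgfr1 total. It was 49.2, 39.7 and 32.4 FPKM in P-Ctrl and 23.6, 25.8 and 35.4 FPKM in P-KO, where P-KO replicate 3 lay within the control range. R-WT mice had 25.99, 33.4 and 31.4 FPKM and in R-Het 46.1, 31.8 and 44.8 FPKM, again with overlap. An Fgfr1 transcript that holds this exon was 21.2, 18.8 and 21.8 FPKM in R-WT and 16.2, 16.8 and 13.5 FPKM in R-Het, all mutants lower (exact permutation p = 0.1, adjusted 0.8). An Fgfr3 transcript was 2.23, 2.82 and 1.86 FPKM in R-WT and 3.34, 2.92 and 2.89 FPKM in R-Het, all mutants higher, with the same p-values. Both overlapped between P-Ctrl and P-KO. Of the 5 Fgfr3 transcripts, 1 holds the 151-base IIIb exon and took 4.84% to 25.4% of the Fgfr3 total. The division of Fgfr3 among its transcripts varied widely between mice of 1 group, for example 2.06% to 64.9% for 1 other form in P-Ctrl, so no order of these transcripts is given. The coding transcript of Fgf18 held 58.4% to 98.9% of its total, and the rest was its non-coding transcript.

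Deviations of the mice from their group means were compared between the genes. Over the 45 pairs of the 10 genes, the correlation of deviations from the group means over 12 mice had a median Pearson r of 0.18 and was positive in 31 pairs. The same values over pairs of all tested genes were not computed, so these are not read as a result about the 10 genes. The highest were Fgfr3 with Efnb1 (r = 0.87) and Twist1 with Msx2 (r = 0.84), and the lowest was Msx1 with Fgf18 (r = -0.81). The tested genes nearest to Msx2 in this measure were Ncs1 (r = 0.98) and Mn1 (r = 0.97), a gene needed for membranous skull bones. The nearest to Twist1 were Nelfe and Rnf187 (r = 0.97 and 0.96), to Alx4 Ubqln1 and Tchp (r = 0.97 and 0.96) and to Msx1 Emc6 and Fcgr4 (r = 0.94 and 0.92). The nearest to Fgfr2 were Hhip, a hedgehog antagonist, and Col6a1, a collagen gene (r = 0.98 and 0.96). Those nearest to Fgfr1 were Atp2b4 and Rnf216 (r = 0.97 and 0.95), to Fgfr3 Btrc and Nynrin (r = 0.97 and 0.96), and to Fgf18 Emilin3 and Agpat2 (r = 0.96 and 0.94). Those nearest to Efnb1 were Nisch and Nup188 (r = 0.99 and 0.97), and to Axin2 Klhl2 and Tmco4 (r = 0.97 and 0.94). These values describe the likeness over 12 mice that share library depth and dissection, and the nearest of 13059 genes is high by selection.

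The other genes of the skull vault and its pathways were taken from 6 lists. Of 30 further genes of craniosynostosis or delayed closure, 28 were tested, and in R-Het 1 was called higher and 0 lower, with a median log2 difference of 0.15. In P-KO 0 of the 28 were called, with a median of -0.02, while 9 had an unadjusted p below 0.05, against the 21.3% of all tested genes given above. In R-Het 6 of the 28 were higher and 1 lower at that level, against 15.4% of all tested genes. The counts in the lists that follow are to be read against these shares. The called gene was Zic1, a zinc-finger factor of cranial mesenchyme and meninges, at 26.5, 29.6 and 30.5 FPKM in R-WT and 46.0, 39.3 and 39.9 FPKM in R-Het (log2 fold change 0.52, SE 0.0970, adjusted p = 0.0459 in limma). In P-Ctrl Zic1 was 24.0, 33.3 and 26.7 FPKM and in P-KO 41.2, 42.2 and 45.7 FPKM. All mutant mice were higher in both comparisons, but in P-KO the gene was not called (log2 difference 0.61, SE 0.124, adjusted p = 0.0617 in limma). The sum of the meningeal markers was also higher in every P-KO mouse, as given above, and its part in the level of Zic1 was not tested. Of the 28 genes, 4 were higher and 5 lower in P-KO at an unadjusted p below 0.05, and Runx2 was 1 of the 5. It averaged 35.5 FPKM in P-Ctrl and 26.7 FPKM in P-KO, with all P-KO mice lower, and was not called (adjusted p = 0.127 in limma). By real-time PCR the study reported Runx2 as unchanged in these mutants.

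Of 22 genes of suture and cranial mesenchyme, 20 were tested, and in R-Het 1 was called higher and 0 lower, with a median log2 difference of 0.22. At an unadjusted p below 0.05, 7 of the 20 were higher and 0 lower in R-Het, and 5 were higher and 5 lower in P-KO. Twist2, the paralogue of Twist1, was the called gene, at 13.8, 12.3 and 14.02 FPKM in R-WT and 22.8, 19.3 and 20.1 FPKM in R-Het (log2 fold change 0.59, SE 0.0965, adjusted p = 0.0309 in limma). In P-KO Twist2 was 14.03 to 14.7 FPKM, within the 11.99 to 15.1 FPKM of P-Ctrl. Prrx1, the gene whose enhancer drives the Cre used here, was singled out after its values were seen: it was 91.0 to 105 FPKM in R-WT and 130 to 150 FPKM in R-Het, with an adjusted p of 0.05004 in limma, just above the threshold. It was also higher in every P-KO mouse (106 to 125 FPKM) than in every P-Ctrl mouse (92.8 to 96.1 FPKM), at 1.24-fold, and was not called there (adjusted p = 0.110 in limma). In P-KO 2 of the 20 genes were called, both lower, and the median log2 difference was -0.03. They were Snai1, a zinc-finger repressor of mesenchyme (32.0, 37.8 and 34.6 FPKM in P-Ctrl, 18.9, 16.4 and 14.8 FPKM in P-KO, log2 fold change -1.02, SE 0.111, adjusted p = 0.0211 in limma), and Foxc2. Foxc2, a forkhead factor of head mesenchyme, was 7.35, 7.22 and 7.33 FPKM in P-Ctrl and 4.65, 3.74 and 4.10 FPKM in P-KO (log2 fold change -0.69, SE 0.0996, adjusted p = 0.0320 in limma). In R-Het neither was called, with log2 differences of -0.25 for Snai1 and 0.05 for Foxc2.

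Of 22 FGF pathway genes 19 were tested, and in P-KO 1 was called lower, with a median log2 difference of -0.01. It was Fgf7, a ligand of the IIIb form of FGFR2, at 5.11, 4.09 and 5.46 FPKM in P-Ctrl and 2.24, 2.46 and 2.45 FPKM in P-KO (log2 fold change -0.79, SE 0.123, adjusted p = 0.0359 in limma). In R-WT it was 5.40, 5.16 and 4.71 FPKM and in R-Het 4.73, 5.11 and 7.56 FPKM, with overlap, and 0 of the 19 genes were called in R-Het (median 0.09), where 2 had an unadjusted p below 0.05. In P-KO 2 of the 19 were lower and 0 higher at that level. Of 17 ephrins and Eph receptors 14 were tested, with a median log2 difference of 0.20 in both mutants. Epha2, a receptor for ephrin-A ligands, was called as lower in P-KO, at 8.18, 8.83 and 7.35 FPKM in P-Ctrl and 4.62, 5.29 and 5.05 FPKM in P-KO (log2 fold change -0.61, SE 0.102, adjusted p = 0.0421 in limma). Of the 14 genes, 11 had log2 differences above 0 in P-KO and 3 below. At an unadjusted p below 0.05, 4 were higher there and 1, Epha2, lower. In R-Het 0 of the 14 were called, and 4 had an unadjusted p below 0.05, all higher.

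Of 13 WNT feedback and target genes 10 were tested, and 0 were called in either mutant, with 3 of 10 at an unadjusted p below 0.05 in P-KO, against 21.3% of all tested genes, and 4 of 10 in R-Het, against 15.4%. The most abundant, Tnfrsf19, a WNT-induced receptor gene, was 129, 88.6 and 75.3 FPKM in P-Ctrl and 48.6, 59.4 and 53.8 FPKM in P-KO, without overlap (log2 difference -0.81, adjusted p = 0.0811 in limma). Ccnd1, for cyclin D1, and Tcf7, a WNT effector, had log2 differences of 0.21 and -0.16 in P-KO and 0.14 and 0.40 in R-Het. All 10 BMP response genes were tested, and 0 were called in either mutant, with 5 of 10 at an unadjusted p below 0.05 in P-KO and 3 of 10 in R-Het. Among the most abundant of these, the log2 differences in P-KO were -0.14 for Id3, 0.07 for Id2 and -0.53 for Id1, targets of BMP signalling that block basic helix-loop-helix factors. Id1 was 137, 161 and 158 FPKM in P-Ctrl and 108, 96.7 and 111 FPKM in P-KO, with an adjusted p of 0.0504 in limma. The 6 called list genes kept their direction in each of the 15 alternatives, but stayed called in between 2 (Zic1) and 6 (Snai1) of them, and with 1 mouse left out Snai1 stayed called in 1 of 6 fits and the other 5 genes in 0. Over all tested genes, the study's two-tailed unpaired test called 0 in P-KO and 1, as lower, in R-Het.

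**Figure D4:**
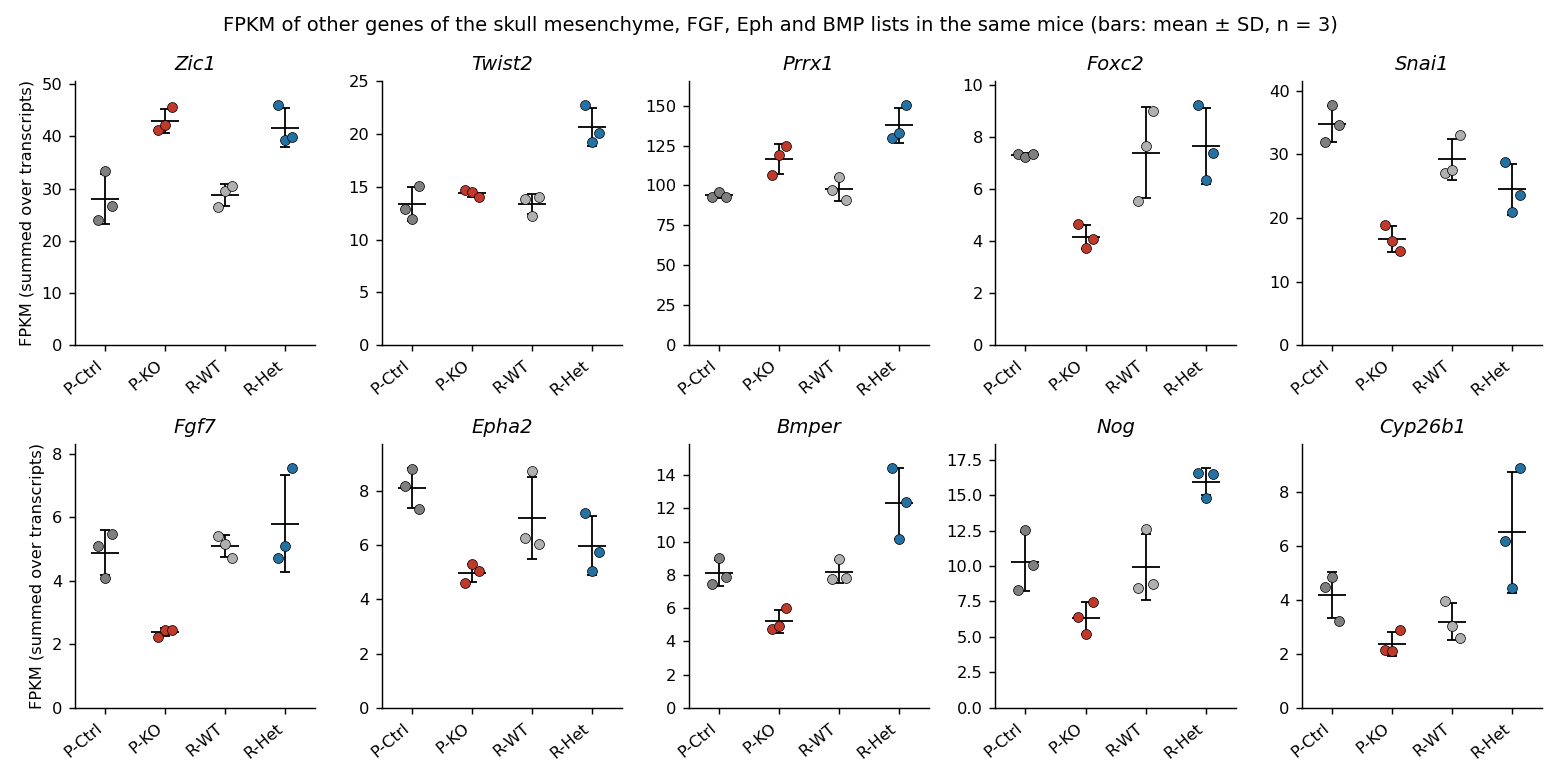
FPKM (y axis, starting at 0) of 10 genes of the lists around the suture genes in the 3 mice of each group; points are mice and black bars the mean ± SD. Zic1, Twist2 and Prrx1 are higher in all R-Het mice than in R-WT, and Zic1 and Prrx1 also in all P-KO mice than in P-Ctrl. Foxc2, Snai1, Fgf7 and Epha2 are lower in all P-KO mice than in P-Ctrl, and Bmper, Nog and Cyp26b1 are lower in all P-KO and higher in all R-Het mice.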

How the data were processed

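Total RNA of calvariae from 12 newborn mice (4 groups of 3, by the titles in the labels) was prepared with TRIzol and TruSeq kits and sequenced on the Illumina platform. For each mouse the authors deposited a table of FPKM, with a value for every RefSeq transcript. Their processing notes name Bowtie 0.12.8 and mm10, and the program that estimated FPKM is not given in the sources used here, so the way reads shared between transcripts were divided is unknown. The values of each library sum to 891329 to 1068933. Of 30411 transcripts, 29831 were named from an NCBI table (GRCm38.p6) and 184 from GENCODE M21, and 396 had no symbol. FPKM were summed per gene. Genes reaching 1 FPKM in 3 or more mice were kept, and log2(FPKM + 1) was fitted with limma 3.58.1 (R 4.3.3, trend) on the 6 mice of each comparison, with Benjamini-Hochberg adjustment over 13059 genes. The pseudocount understates changes of low genes. The difference between the comparisons was fitted over 12 mice. Transcripts were compared by exact permutation tests (scipy). The fit was tested on simulated data.

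The 10 genes and all lists were chosen with earlier results of these data known. Within the lists, genes called in either comparison are named, or otherwise up to 3 of the most abundant, and for each of the 10 genes the 2 most similar tested genes. The labels do not say whether replicates came from separate litters, and p-values measure the spread between these mice. Depth was estimated from the FPKM worth of 1 fragment in genes of at least 2 kb with 1 transcript, and is approximate. Alternatives were another pseudocount, no filter, 1 fit of all mice, replicate blocks, 2 rescalings, Student's test, each mouse left out and, added after seeing the data, omission of the 3 libraries with Xist and a muscle covariate. One sequence is not reported here.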

Additional observations from a re-analysis of the deposited data

Results flagged for a closer look

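No group of 3 mice was searched for outliers. None of the 10 suture genes moved in opposite directions in all mice of the 2 comparisons. In the lists around them, 3 tested genes did so, lower in every P-KO mouse than in every P-Ctrl mouse and higher in every R-Het mouse than in every R-WT mouse, and they are named here because of these values. Of all tested genes, 7.68% were lower in every P-KO mouse and 10.7% higher in every R-Het mouse. The share that did both was not computed, so the count of 3 is not read as a result about these lists. Bmper, for a BMP-binding protein, was 7.47, 9.01 and 7.85 FPKM in P-Ctrl and 4.73, 4.90 and 5.99 FPKM in P-KO, and 7.78, 8.98 and 7.79 FPKM in R-WT against 14.4, 10.2 and 12.4 FPKM in R-Het. Its log2 fold change in P-KO less that in R-Het was -1.08, with an adjusted p of 0.0481 in limma, although it was called in neither comparison alone. The difference was called in 8 of 19 alternatives and in 5 of the 12 fits with 1 mouse left out, with an adjusted p of 0.0260 to 0.847 and the same direction in all 19. Nog, for the BMP antagonist noggin, had a difference of -1.27 (adjusted p = 0.0588 in limma). Cyp26b1, for an enzyme that degrades retinoic acid, had a difference of -1.42 (adjusted p = 0.0678 in limma).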

How the results depend on the processing

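Of 300 values of the 10 genes in the 2 comparisons under alternatives, 263 kept direction and side of the threshold and 24 changed sign, none of them called. The other 13 were Msx2 in R-Het, called only with a pseudocount of 0.1 and with rescaling by the median ratio (adjusted p 0.0404 to 0.489). The count of called suture genes in R-Het was therefore 0 with no filter, 1 fit of all 12 mice, the replicate block, rescaling to the same sum, Student's test, without the 3 libraries with Xist, with the muscle covariate and with any R mouse left out. In P-KO it stayed 0 under every alternative run. The cause was not tested, except that the fits with fewer mice have fewer values to estimate the spread.

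Numbers of called genes are given as higher and lower. With no filter they were 1 and 0 in P-KO, 2 and 3 in R-Het, and 0 and 6 for the difference between the comparisons. With 1 fit of all mice they were 527 and 190 in P-KO, and 56 were lower in R-Het. The replicate numbers share no stated litter, and same-numbered mice deviated together with r of 0.18, 0.26 and 0.05 in the P groups and 0.00, -0.05 and -0.08 in the R groups, so they were not taken as pairs. With the replicate block 21 genes were higher and 69 lower in R-Het, 119 were higher for the difference, and 0 suture genes were called. Rescaled to the same sum, 41 were higher in P-KO and 20 for the difference, the median of the 10 genes in P-KO was -0.025 and Twist1 was -0.071 there. Rescaled by the median ratio, 57 were higher in P-KO and 4 for the difference, Twist1 was -0.042 in P-KO and Fgfr3 -0.012 in R-Het. Student's two-tailed test called 0 and 0 genes in P-KO, and 0 and 1 in R-Het.

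Without the 3 libraries with Xist, 1 and 0 genes were called in P-KO, 7 and 25 in R-Het, and 0 and 1 for the difference, and Efnb1 was 0.056 and Axin2 -0.31 in P-KO. This fit leaves 1 P-Ctrl mouse against 3 P-KO mice and 2 R-WT mice against 3 R-Het mice, and the lone mouse is assumed to vary like the other group. With the muscle covariate, 0 and 1 were called in P-KO, 2 and 1 in R-Het, and 0 and 0 for the difference. The log2 values that changed sign with it were 0.0064 for Fgfr3, 0.13 for Efnb1 and -0.18 for Axin2 in P-KO, and -0.024 for Msx1, -0.15 for Fgfr1, -0.47 for Fgfr2, 0.076 for Fgf18 and -0.53 for Axin2 in R-Het. In the difference between the comparisons they were 0.027 for Msx1, 0.13 for Alx4, 0.11 for Fgfr3, -0.043 for Fgf18 and 0.037 for Efnb1. Muscle and genotype cannot be told apart in the R groups, so the R-Het values with this covariate are not read as effects with muscle removed.

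With 1 mouse left out at a time, 0 to 22 genes were higher and 0 to 13 lower in P-KO, 6 to 34 higher and 24 to 134 lower in R-Het, and 0 to 144 higher and 2 to 24 lower for the difference, with 0 to 0 suture genes called in R-Het. The median of the 10 genes in P-KO ran from -0.065 to 0.097. The genes that changed sign ran, in P-KO, from -0.065 to 0.094 (Twist1), -0.073 to 0.28 (Fgf18), -0.17 to 0.035 (Efnb1) and -0.052 to 0.33 (Axin2), and in R-Het from -0.082 to 0.10 (Fgfr3), -0.15 to 0.078 (Fgf18) and -0.010 to 0.34 (Efnb1). For the difference they ran from -0.14 to 0.091 (Msx1), -0.025 to 0.33 (Fgf18) and -0.37 to 0.0085 (Axin2).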
